A study of Mus musculus with 15 samples.

Results

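Collagens, laminins, elastic-fibre proteins, matrix glycoproteins and the enzymes that cross-link them make up the structural extracellular matrix examined here, in mouse lung RNA sequencing. The members were taken by gene symbol: numbered collagen chains, laminin chains, fibulins, fibrillins, Eln, Fn1, Tnc, Postn, Sparc, Lox, Loxl1 and Loxl2. The rule found 52 of the 14766 genes in the deposited table, and 43 of them were measured high enough to be tested. The 52 were 9 fibrillar collagens, 5 chains of collagen IV, 4 of collagen VI, 4 fibril-associated collagens, 8 other collagens, 10 laminin chains, 5 elastic-fibre genes, 4 glycoproteins and 3 cross-linking enzymes.

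There were 3 groups of 5 libraries from whole lung of wild-type mice kept under specific-pathogen-free conditions. Control mice received normal saline. OVA mice were given ovalbumin, an egg protein used to induce allergic airway inflammation, by intraperitoneal injection and then as an aerosol. OVA_Rg3 mice had the same induction with ovalbumin and received ginsenoside Rg3, a saponin of ginseng, at 20 mg/kg by gavage during it. The labels call the replicates biological and place all libraries in batch 1. Strain, sex and age are not given in the sources used here, and Rg3 without ovalbumin was not analysed here.

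The fibrillar collagens form the tensile fibrils of airway and vessel walls, and fibroblasts and smooth muscle cells make most of them. Collagen IV and the laminins form the basement membranes under epithelium and endothelium, elastin laid on fibrillin microfibrils gives the lung its recoil, and lysyl oxidases cross-link collagen and elastin. Thickening of the collagen layer under the airway epithelium is a known feature of asthma.

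Values are taken to be FPKM, a read count per gene length and library size. They were divided by a median-ratio size factor for each library and are called scaled values below. Mitochondrial transcripts took 18.9 to 29.3% of the summed values in control, 46.2 to 79.8% in OVA and 41.6 to 70.4% in OVA_Rg3. The steps between low values imply 0.223 to 8.96 M reads per library, and 3 reads on a transcript of 1 kb would give a deposited value of 0.335 to 13.5. The coarsest libraries were OVA_Rg3 1, where 7 of the 52 genes were listed at 0, and control 2. Summed scaled values of 6 liver markers were 331 in control 2, 323 in OVA 4 and 1578 in OVA_Rg3 1, against at most 91.5 in the other libraries. Results are therefore also given without these 3 libraries. Alveolar type 2 markers, which define lung tissue, summed to between 1749 and 8736 in every library. Most of the mean sum of each group was Sftpc, so it says little of the other markers.

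Promoter sequence is shown for 2 fibrillar collagens and the 2 non-fibrillar collagens other than chains IV and VI that fell with OVA, and for the stretch between the starts of Col4a3 and Col4a4, whose ratio is described below. Sequences are from RefSeq on GRCm38.p6 and are read 5′ to 3′. Capitals mark GGGCGG (the GC box, 4 matches in Col8a2 of which 2 overlap) and TATAAA, searched with CCAAT on both strands. Within each RefSeq window only the longest stretch without an annotated exon is shown. The stretches are chr6:4505370-4505492 (plus strand), chr1:45311288-45311537 (plus), chr11:51289670-51289919 (plus), chr4:126286544-126286792 (plus) and chr1:82586850-82586920 (minus).
Col1a2: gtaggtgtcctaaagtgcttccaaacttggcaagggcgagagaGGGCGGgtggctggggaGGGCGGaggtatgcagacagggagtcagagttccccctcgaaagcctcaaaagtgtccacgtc
Col3a1: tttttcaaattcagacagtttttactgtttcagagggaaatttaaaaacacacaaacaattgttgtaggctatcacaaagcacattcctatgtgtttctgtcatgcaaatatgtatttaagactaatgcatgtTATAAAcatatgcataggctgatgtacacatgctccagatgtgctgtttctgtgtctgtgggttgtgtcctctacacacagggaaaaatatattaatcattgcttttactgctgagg
Col23a1: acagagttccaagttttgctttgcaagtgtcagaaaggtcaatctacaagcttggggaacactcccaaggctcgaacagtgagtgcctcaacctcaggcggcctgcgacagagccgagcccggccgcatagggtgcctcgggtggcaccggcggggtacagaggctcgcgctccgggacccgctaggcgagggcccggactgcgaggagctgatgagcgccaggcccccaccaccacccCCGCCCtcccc
Col8a2: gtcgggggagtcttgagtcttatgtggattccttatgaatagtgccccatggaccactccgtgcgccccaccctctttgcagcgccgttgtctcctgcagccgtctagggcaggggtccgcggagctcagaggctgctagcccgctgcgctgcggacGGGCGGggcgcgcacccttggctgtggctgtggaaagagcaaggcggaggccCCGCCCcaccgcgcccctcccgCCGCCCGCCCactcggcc
Col4a3/Col4a4: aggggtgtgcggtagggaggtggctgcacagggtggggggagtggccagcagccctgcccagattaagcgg

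The Col3a1 stretch held a TATAAA match and no GC box, whereas those of Col1a2, Col23a1 and Col8a2 held GC boxes and no TATAAA. The 71 bases between Col4a3 and Col4a4, which are transcribed in opposite directions, held no match to any of the 3 motifs. Promoter windows were found for 37 of the 52 genes (44 windows). Among them CCAAT was present in 25%, the GC box in 54.5% and TATAAA in 15.9%, against 33.8%, 32.7% and 12.4% of all 32851 windows of 250 bases. A match describes the letters in the window and is not evidence of binding.

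In control lung the matrix gene of highest scaled value was Sparc, a collagen-binding glycoprotein, at 89.4 ± 31.8 (SD, n = 5). Next came Col1a1 at 26.6 ± 2.50, Col3a1 at 24.4 ± 7.51, Col1a2 at 22.7 ± 3.44 and Eln at 22.7 ± 10.7 (SD, n = 5 each), which did not differ beyond their spread. Col4a1 at 17.0 ± 5.83, Col23a1 at 15.7 ± 5.51, Col4a2 at 13.9 ± 6.44, Col6a1 at 13.8 ± 2.16 and Loxl1 at 11.1 ± 5.04 (SD, n = 5 each) followed, each within the spread of its neighbours. The 9 genes too low to be tested were Col5a3, Col24a1, Col7a1, Col6a5, Lamc3, Lama2, Col11a2, Col12a1 and Col17a1. Col5a3 reached 4.40 in OVA_Rg3 1, and the highest scaled value of the other 8 in any library was 1.73, for Col24a1 in OVA 1.

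The comparison of OVA with control asks how the allergic model altered matrix transcripts. Collagens I and III, the main fibrillar collagens, were lower with OVA, and so were single chains of collagens IV and VI, Col23a1, Col8a2, the laminin chains Lama4 and Lamb1 and the glycoprotein Tnc. The major basement-membrane chains Col4a1 and Col4a2, elastin, fibronectin and Sparc did not pass the test. Of the 43 genes tested, 10 fell and 0 rose (limma, adjusted p under 0.05), while 10.5% of all 12137 genes tested fell and 5.4% rose (15.9% in all). At an unadjusted p under 0.05 there were 16 of the 43, against 29.3% of all genes. The median log2 change was -0.55 over the 43 genes and -0.09 over all genes, and 37 of the 43 lay below 0. Of the 10, Col8a2 and Lama4 reached a deposited value of 1 in 9 libraries each, 5 of them controls. They passed the filter of 5 libraries only through control, so comparisons of them with control are not independent of it. With no filter, 8 of the 52 fell (8.3% of all genes), and the medians were -0.40 and -0.07. In 11 of the 43 every OVA library lay below every control, as in 11.3% of all genes. In whole tissue, fewer cells of a type and less RNA per cell cannot be told apart.

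Without control 2, OVA 4 and OVA_Rg3 1, 18 of the 43 genes fell, including all 10, while 14.4% of all genes fell. The 8 further genes were Col5a1, Col14a1, Col15a1, Fbn1, Fbln2, Lama5, Loxl1 and Loxl2. The count was 6 without control 4, without control 5 or without OVA 5, where 6.62%, 8.98% and 6.82% of all genes fell. Col1a1, Col1a2, Col4a5, Col6a3, Col23a1 and Col8a2 passed in every fit that left out 1 library. On the values as deposited, which carry the mitochondrial share, 27 fell, but so did 51.2% of all genes, whose median was -0.73.

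**Figure D1:**
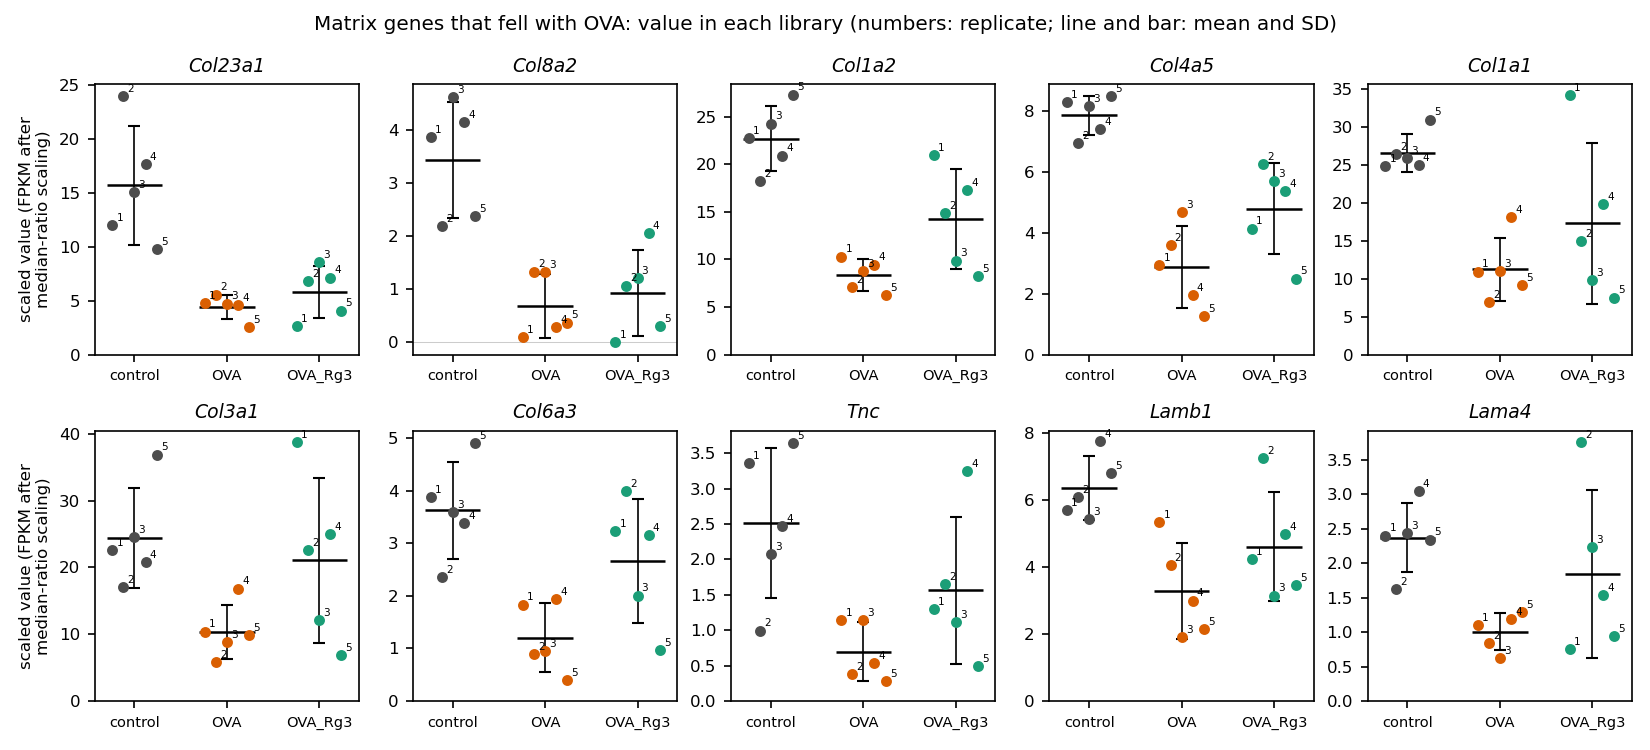
Scaled values (taken to be FPKM, after median-ratio scaling, vertical axes from 0) of the 10 matrix genes that fell with OVA. Each library is a point numbered by replicate, shown with the mean and SD of the 5 libraries of a group. The OVA points lie below all control points for each gene except Tnc, where control 2 at 0.995 is below OVA 1 at 1.14.

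Among the 6 fibrillar collagens tested, 3 fell and the median log2 change was -0.94. Col1a2 (chr6:4504814-4541544), the second chain of collagen I, had scaled values of 22.8, 18.2, 24.3, 20.9 and 27.3 in controls 1 to 5. In OVA 1 to 5 its values were 10.3, 7.09, 8.79, 9.46 and 6.22, and in OVA_Rg3 1 to 5 they were 21.0, 14.9, 9.87, 17.3 and 8.21. All OVA libraries were below all controls. OVA_Rg3 1 was inside the control range. The other OVA_Rg3 libraries lay below every control, with OVA_Rg3 3 and 5 inside the OVA range. Its OVA mean was 0.369 times the control mean, with a log2 change of -1.35 ± 0.23 (SE, adjusted p = 0.00191). The stretch printed for it, with a pair of GC boxes, lies inside this span, since the RefSeq start used is downstream of the start in the deposited table.

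Col1a1 (chr11:94936224-94953042), the other chain of collagen I, was at 24.9, 26.4, 25.8, 25.0 and 30.9 in controls 1 to 5. The OVA lungs had 10.9, 6.91, 10.98, 18.1 and 9.20, and the OVA_Rg3 lungs had 34.2, 14.99, 9.85, 19.8 and 7.51. The OVA and control libraries did not overlap, and OVA_Rg3 1, with liver and skeletal muscle transcripts, was above every control. The log2 change with OVA was -1.23 ± 0.32 (SE, adjusted p = 0.0168). The ratio of Col1a1 to Col1a2 within a library was 1.06 to 1.45 in control, 0.974 to 1.91 in OVA and 0.915 to 1.63 in OVA_Rg3, so the ranges overlapped between all groups.

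Col3a1 (chr1:45311538-45349706), which encodes collagen III of distensible tissues, was at 22.7, 17.1, 24.5, 20.8 and 36.9 in controls 1 to 5. Its values were 10.4, 5.80, 8.81, 16.8 and 9.85 in OVA and 38.8, 22.6, 12.1, 24.9 and 6.90 in OVA_Rg3. Control 2 at 17.1 was just above OVA 4 at 16.8. The log2 change with OVA was -1.19 ± 0.37 (SE, adjusted p = 0.0416), close to the threshold. The adjusted p lay between 0.0666 and 0.0949 when any of controls 1, 3, 4 and 5 or OVA 1, 2, 3 and 5 was left out, with log2 changes of -1.23 to -1.02.

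Col5a1, a chain of collagen V that starts fibril assembly, ranged from 2.49 to 3.28 in control and from 0.671 to 2.10 in OVA. The groups did not overlap, but the log2 change of -0.70 ± 0.29 (SE) had an adjusted p of 0.117. Col5a2, whose gene lies 24.6 kb from Col3a1 and is transcribed in the opposite direction, had a log2 change of -0.36 ± 0.31 (SE, adjusted p = 0.492). Col27a1, of a minor fibrillar collagen, had -0.13 ± 0.18 (SE, adjusted p = 0.676).

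In collagen IV, 1 of 5 chains fell. Col4a5 (chrX:141475385-141689234) was at 8.28, 6.95, 8.15, 7.40 and 8.49 in controls 1 to 5. OVA 1 to 5 had 2.93, 3.60, 4.69, 1.95 and 1.28, and OVA_Rg3 1 to 5 had 4.14, 6.24, 5.69, 5.35 and 2.50. After scaling, both ovalbumin groups lay below every control, but on the values as deposited OVA_Rg3 overlapped with control. The log2 change with OVA was -1.26 ± 0.24 (SE, adjusted p = 0.00411).

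Col4a1, a chain of the most widespread collagen IV network, was at 24.5, 12.3, 10.9, 16.04 and 21.5 in controls 1 to 5. It was at 36.5, 25.3, 7.02, 17.9 and 12.2 in OVA and at 32.7, 50.4, 22.0, 26.5 and 14.99 in OVA_Rg3. The groups overlapped, and the log2 change with OVA was 0.07 (95% interval -0.76 to 0.90). Summed scaled values of 8 endothelial markers were 80.6 to 134 in control, 355 and 326 in OVA 1 and 2 and 120 to 140 in OVA 3 to 5. They were 406 in OVA_Rg3 2 and 151 to 228 in the other OVA_Rg3 libraries. Of these 8 markers, 0 rose and 0 fell with OVA, and 3 rose in OVA_Rg3 against control (3.01% of all genes). Their part in the Col4a1 values was not tested. Col4a2, whose annotated start overlaps that of Col4a1 by 22 bases on the opposite strand, kept a ratio to Col4a1 of 0.654 to 1.03 in all 15 libraries. Its log2 change was 0.09 (95% interval -0.76 to 0.94).

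Col4a3 and Col4a4, which form the second collagen IV network with Col4a5 and are separated by the 71 bases printed above, had log2 changes of -0.02 ± 0.41 and 0.34 ± 0.38 (SE, adjusted p = 0.983 and 0.608). All 3 chains of this network are found in alveolar basement membrane. In collagen VI, a beaded microfibril next to basement membranes, 1 of 3 chains tested fell, and all 3 had log2 changes below 0. Col6a3 (chr1:90765923-90843971) had scaled values of 3.88, 2.36, 3.59, 3.38 and 4.91 in controls 1 to 5. Its OVA values were 1.84, 0.888, 0.954, 1.94 and 0.404, and its OVA_Rg3 values were 3.23, 3.99, 2.01, 3.15 and 0.974. OVA and control did not overlap, and the log2 change was -1.10 ± 0.27 (SE, adjusted p = 0.0127). Col6a1 at -0.18 ± 0.37 and Col6a2 at -0.52 ± 0.37 (log2 change, SE) did not pass, with adjusted p of 0.805 and 0.387. Col6a2 was 10.7 in OVA 4 and 2.07 to 3.99 in the other OVA libraries. Without control 2, OVA 4 and OVA_Rg3 1 its log2 change was -0.88 (adjusted p = 0.0711).

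The 6 other collagens tested held the pair with the most negative log2 changes of the 43 genes. Col23a1 (chr11:51289920-51583918), a transmembrane collagen, was at 12.0, 23.9, 15.03, 17.7 and 9.74 in controls 1 to 5. OVA 1 to 5 had 4.80, 5.56, 4.72, 4.56 and 2.56, and OVA_Rg3 1 to 5 had 2.64, 6.80, 8.54, 7.12 and 4.07. All 10 libraries of the ovalbumin groups lay below the lowest control. The OVA mean was 0.283 times the control mean, and the log2 change was -1.58 ± 0.28 (SE, adjusted p = 0.00265).

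Col8a2 (chr4:126286793-126314330), a short-chain network collagen, was at 3.87, 2.19, 4.63, 4.15 and 2.39 in controls 1 to 5. The values were 0.0926, 1.33, 1.33, 0.289 and 0.373 in OVA and 0, 1.07, 1.21, 2.06 and 0.312 in OVA_Rg3. Again both ovalbumin groups lay below all controls, although values this low rest on few reads. The log2 change with OVA was -1.44 ± 0.31 (SE, adjusted p = 0.00711). Its partner chain Col8a1 had a log2 change of -0.08 ± 0.21 (SE, adjusted p = 0.841), with 1.59 to 2.03 in control and 0.888 to 3.27 in OVA.

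Col13a1, another transmembrane collagen, had a log2 change of -0.22 ± 0.32 and Col18a1, the basement-membrane source of endostatin, -0.09 ± 0.33 (SE). Col15a1, the collagen most related to Col18a1, had -0.93 ± 0.32 (SE, adjusted p = 0.0621), and without the 3 libraries it fell by 1.02 on the log2 scale (adjusted p = 0.00828). None of the 3 fibril-associated collagens fell. Col14a1, which coats collagen I fibrils, had -0.79 ± 0.26 (SE, adjusted p = 0.0523) and Col16a1 -0.41 ± 0.22 (SE, adjusted p = 0.245). Control 2 was low for Col14a1, and without it the log2 change was -0.92 (adjusted p = 0.0354). Leaving out OVA 3 or OVA 4 gave -0.88 and -0.96 (adjusted p = 0.0444 and 0.0266).

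All 8 laminin chains tested had log2 changes below 0, with a median of -0.65, and 2 fell. Lamb1 (chr12:31265234-31329644), the beta chain of many laminins, ranged from 5.41 to 7.76 in control, 1.90 to 5.35 in OVA and 3.15 to 7.24 in OVA_Rg3. Its log2 change with OVA was -0.83 ± 0.23 (SE, adjusted p = 0.026). That p rose to between 0.0509 and 0.0697 when control 4, control 5, OVA 3, OVA 4 or OVA 5 was left out, with log2 changes of -0.82 to -0.70.

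Lama4 (chr10:38965515-39110188), a chain of vessel basement membranes, ranged from 1.63 to 3.05 in control, 0.621 to 1.28 in OVA and 0.752 to 3.76 in OVA_Rg3. It fell by 0.75 on the log2 scale (SE 0.24, adjusted p = 0.0445). Leaving out any library of either group except control 2 moved its adjusted p to between 0.0633 and 0.11, with log2 changes of -0.80 to -0.67. Lama5, the alpha chain of alveolar basement membrane, was lower in every OVA library (2.12 to 5.00) than in any control (5.33 to 8.21), with a log2 change of -0.68 ± 0.22 (SE, adjusted p = 0.052), and -0.75 (adjusted p = 0.0493) without control 2. Lamb2 had -0.62 ± 0.30 (SE, adjusted p = 0.194).

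No elastic-fibre gene was called among 5 (limma). Eln, elastin, was at 20.5, 24.03, 12.4, 16.4 and 40.1 in controls 1 to 5 and at 39.7, 23.1, 13.2, 39.4 and 8.87 in OVA 1 to 5. The OVA values spanned more than the control values, and the log2 change was 0.02 (95% interval -0.98 to 1.02). Fbn1, the main fibrillin, had a log2 change of -0.81 ± 0.29 (SE, adjusted p = 0.0689) and, without control 2, of -0.96 (adjusted p = 0.044).

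Tnc (chr4:63959785-64047015), tenascin C, a matricellular protein of tissue repair, was the glycoprotein that fell. Its values were 3.36, 0.995, 2.07, 2.47 and 3.65 in controls 1 to 5, 1.14, 0.379, 1.14, 0.533 and 0.282 in OVA, and 1.30, 1.66, 1.12, 3.24 and 0.490 in OVA_Rg3. The OVA and control ranges overlapped through control 2. The log2 change was -1.02 ± 0.28 (SE, adjusted p = 0.0244). It was -1.01 to -0.91, with an adjusted p of 0.0516 to 0.0649, when control 1, 4 or 5 or OVA 2, 4 or 5 was left out.

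Fn1, fibronectin, had a log2 change with OVA of 0.40 (95% interval -0.31 to 1.10), and Sparc had -0.10 (95% interval -0.73 to 0.53). Lox, the lysyl oxidase that cross-links collagen and elastin, was at 8.51, 2.41, 4.90, 9.33 and 13.6 in controls 1 to 5. OVA 1 and OVA 2 had 41.8 and 37.8, and OVA 3, 4 and 5 had 4.39, 3.87 and 3.58. In OVA_Rg3 the values were 4.08, 13.2, 7.30, 7.55 and 2.71. The high pair were also the OVA libraries with the smallest mitochondrial shares and the largest endothelial marker sums. The ratio of Lox to its paralog Loxl1 was 6.56 and 6.94 in these libraries and 0.364 to 0.890 in the other 13. The group difference for Lox was 0.56 on the log2 scale (95% interval -0.83 to 1.95), and that for Loxl1 was -0.58 ± 0.36 (SE, adjusted p = 0.321).

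**Figure D2:**
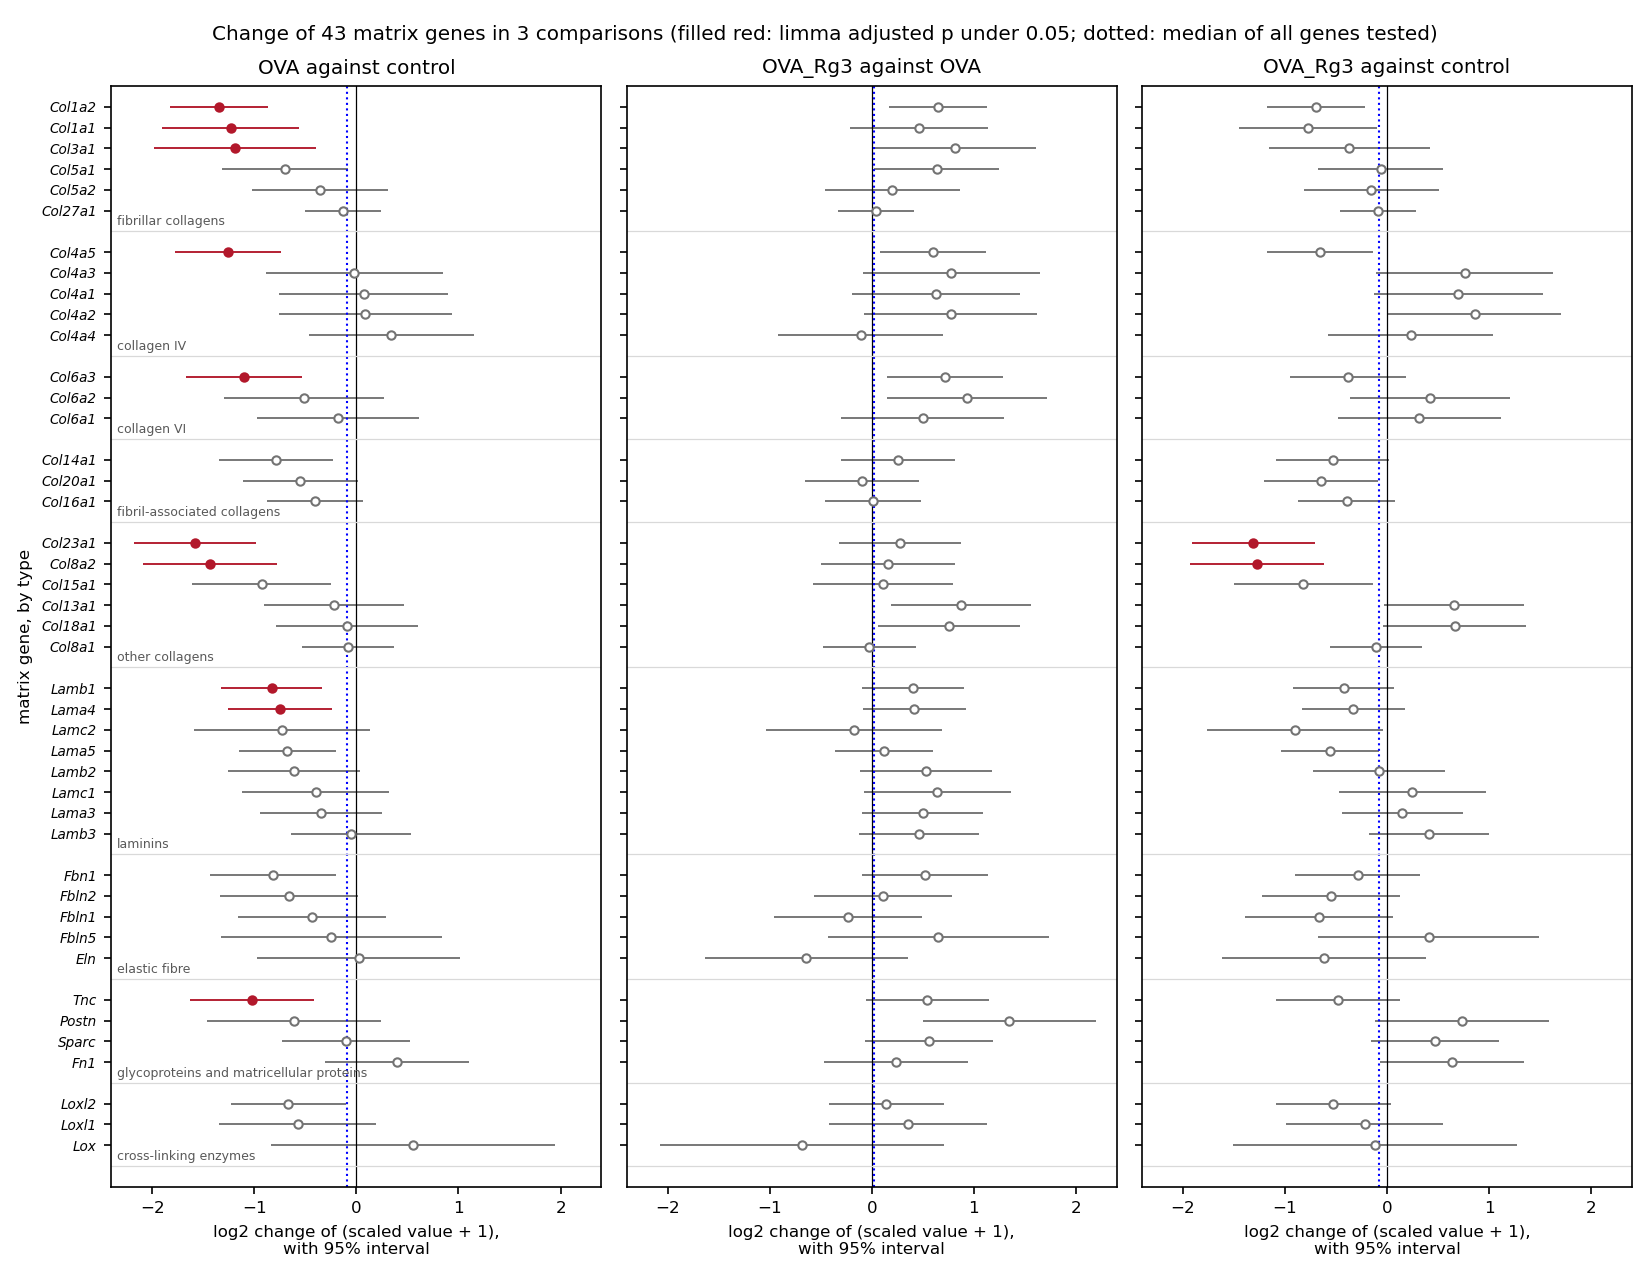
Log2 change of (scaled value + 1) with its 95% interval for the 43 matrix genes tested, by type, in 3 comparisons on a common axis. Filled red points have a limma adjusted p under 0.05 (10, 0 and 2 genes from left to right), and the dotted line is the median of all genes tested.

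The comparison of OVA_Rg3 with OVA asks whether Rg3 altered matrix transcripts in the model. No matrix gene was called, and no gene of the 12137 tested was (limma, 0%). At an unadjusted p under 0.05 there were 9 of the 43 and 8.61% of all genes. The median log2 change was 0.46 over the 43 genes and 0.02 over all genes, with 36 of the 43 above 0. Without OVA_Rg3 2 the median of the 43 was 0.25. This comparison shares its OVA libraries with the comparison above, so the values are given side by side and are no separate evidence. The 5 smallest p-values belonged to Postn, Col1a2, Col13a1, Col6a3 and Col6a2.

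Postn (chr3:54361109-54391037), periostin, a matricellular protein induced by interleukin 13 in asthma, was at 2.17, 2.62, 2.04, 5.53 and 8.85 in controls 1 to 5. OVA 1 to 5 had 2.69, 2.15, 0.922, 2.62 and 2.33. OVA_Rg3 1 to 5 had 7.99, 16.4, 8.53, 3.10 and 3.70. Every OVA_Rg3 library was above every OVA library, an arrangement found in 0.478% of all genes and in no other gene of the 43, and none of the 43 lay wholly below OVA (0.807% of all genes). On the values as deposited the groups overlapped, with OVA 1 at 3.12 and OVA_Rg3 5 at 2.85. The log2 change was 1.35 (95% interval 0.50 to 2.20), with an unadjusted p of 0.00407 and an adjusted p of 0.441. Against control the OVA_Rg3 values overlapped, at 0.74 ± 0.40 (log2 change, SE, adjusted p = 0.268). No rise of Postn with OVA was seen, as OVA against control had -0.61 (log2, 95% interval -1.46 to 0.24, adjusted p = 0.341).

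Col1a2 differed between OVA_Rg3 and OVA by 0.65 (log2, 95% interval 0.17 to 1.13, adjusted p = 0.519) and Col6a3 by 0.72 (0.15 to 1.29, adjusted p = 0.522). Col13a1 was at 0.931 to 3.82 in OVA and 1.54 to 9.74 in OVA_Rg3, a log2 change of 0.88 (95% interval 0.19 to 1.56, adjusted p = 0.522). Col6a2 was at 2.07 to 10.7 and 3.50 to 15.3, a log2 change of 0.93 (95% interval 0.15 to 1.72, adjusted p = 0.543). These 4 genes overlapped between the groups. The other collagen I chain, Col1a1, had 0.46 (95% interval -0.22 to 1.13), or 0.18 without OVA_Rg3 1, and Col3a1 0.82 (95% interval 0.03 to 1.61). These intervals are for single genes and are not widened for the number of genes tested.

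Among basement-membrane genes the log2 change of OVA_Rg3 against OVA was 0.63 (95% interval -0.20 to 1.46) for Col4a1, 0.77 (-0.08 to 1.62) for Col4a2, 0.12 (-0.36 to 0.60) for Lama5 and 0.53 (-0.11 to 1.18) for Lamb2. Col23a1 had 0.28 (95% interval -0.32 to 0.88) and Col8a2 0.16 (95% interval -0.50 to 0.82). Elastin had -0.64 (95% interval -1.64 to 0.36) and Lox -0.68 (95% interval -2.07 to 0.71). Fn1 was 24.9 in OVA_Rg3 1, the library with the largest liver marker sum, and 4.97 to 7.99 in the other 4. The log2 change of Fn1 was 0.24 with that library and -0.12 without it. Hepatocytes are a major source of plasma fibronectin. In control 2 and OVA 4, which also had high liver marker sums, Fn1 was 6.79 and 5.76. The part of liver transcripts or of low depth in the Fn1 value of OVA_Rg3 1 was not tested.

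**Figure D3:**
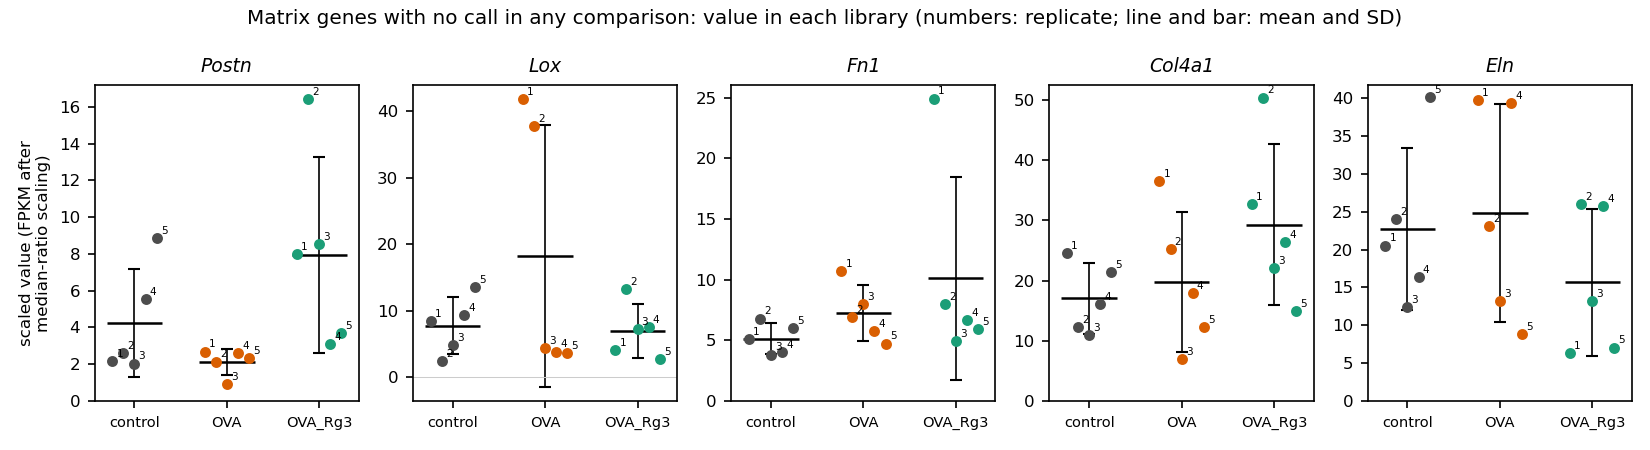
Scaled values (taken to be FPKM, after median-ratio scaling) of Postn, Lox, Fn1, Col4a1 and Eln, none of them called in any of the 3 comparisons. Each library is a numbered point, shown with the mean and SD of each group of 5. Postn is higher in every OVA_Rg3 library than in any OVA library after scaling but not as deposited, Lox is high in OVA 1 and 2, and Fn1 is high in OVA_Rg3 1.

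The comparison of OVA_Rg3 with control asks what remained different from saline lungs under Rg3. Col23a1 and Col8a2 fell and no matrix gene rose (limma), while 5.9% of all genes fell and 3.01% rose (8.91% in all). The median log2 change was -0.22 over the 43 genes and -0.08 over all genes. The median of the 43 was -0.039 without OVA_Rg3 5, -0.099 without control 5, -0.39 without control 2 and -0.40 without OVA_Rg3 2, with all genes at -0.062, -0.083, -0.092 and -0.091. Col23a1 fell by 1.31 on the log2 scale (SE 0.28, adjusted p = 0.015), and Col8a2 fell by 1.27 (SE 0.31, adjusted p = 0.0224). With Col4a5 they were the 3 genes whose OVA_Rg3 libraries were all below the controls, as in 8.49% of all genes. On the values as deposited Col23a1 and Col8a2 stayed apart, but Col4a5 overlapped, with OVA_Rg3 2 at 8.19 and control 2 at 7.82. Col4a5 had a log2 change of -0.66 ± 0.24 (SE, adjusted p = 0.104).

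The Col8a2 call was lost when control 1, control 3, control 4 or OVA_Rg3 5 was left out (log2 changes of -1.23 to -1.16, adjusted p of 0.0532 to 0.0649). Without OVA_Rg3 1, 5 genes fell, Col1a1, Col1a2 and Col15a1 in addition. Without OVA_Rg3 2, 3 fell. With all libraries Col1a1 had -0.77 ± 0.32 (SE, adjusted p = 0.139), and without OVA_Rg3 1 it had -1.06 (adjusted p = 0.0222). Without the 3 libraries named above, Col1a1, Col1a2, Col15a1, Col23a1 and Col8a2 fell, by 1.06, 0.92, 1.01, 0.94 and 1.18 on the log2 scale. Several genes had changes above 0 that did not pass, such as Col4a2 at 0.86 ± 0.40, Col4a1 at 0.70 ± 0.39 and Fn1 at 0.64 ± 0.33 (log2 change, SE, adjusted p of 0.191, 0.281 and 0.244). For Fn1 the value without OVA_Rg3 1 was 0.28.

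Ratios between genes of one library do not depend on its scaling. They were picked with the values in view and are described without a test. The summed Col1a1, Col1a2 and Col3a1 over the summed Col4a1 and Col4a2 was 1.61, 3.03, 3.96, 2.35 and 2.18 in controls 1 to 5. It was 0.509, 0.462, 2.10, 1.33 and 1.15 in OVA and 1.46, 0.532, 0.744, 1.30 and 0.849 in OVA_Rg3. OVA_Rg3 lay below all controls, and OVA 3 was the only ovalbumin library inside the control range. Collagens I and III made up 16.6 to 24.2% of the summed matrix values in control, 6.63 to 14.1% in OVA and 8.53 to 17.6% in OVA_Rg3.

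The ratio of Fn1 to Col1a1 was 0.148 to 0.257 in control, 0.319 to 0.998 in OVA and 0.337 to 0.794 in OVA_Rg3, with no overlap of either ovalbumin group with control. That of Col6a3 to Col6a1, chains of 1 collagen VI molecule, was 0.181 to 0.324 in control, 0.0416 to 0.114 in OVA and 0.110 to 0.206 in OVA_Rg3. OVA again lay apart from control, whereas OVA_Rg3 reached into both ranges. The ratio of Col4a3 to Col4a4, the pair with a shared 71-base stretch, was 0.317 to 0.740 in control and 0.356 to 0.567 in OVA. In OVA_Rg3 it was 1.13, 1.17, 1.11, 0.849 and 0.646, all above OVA.

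**Figure D4:**
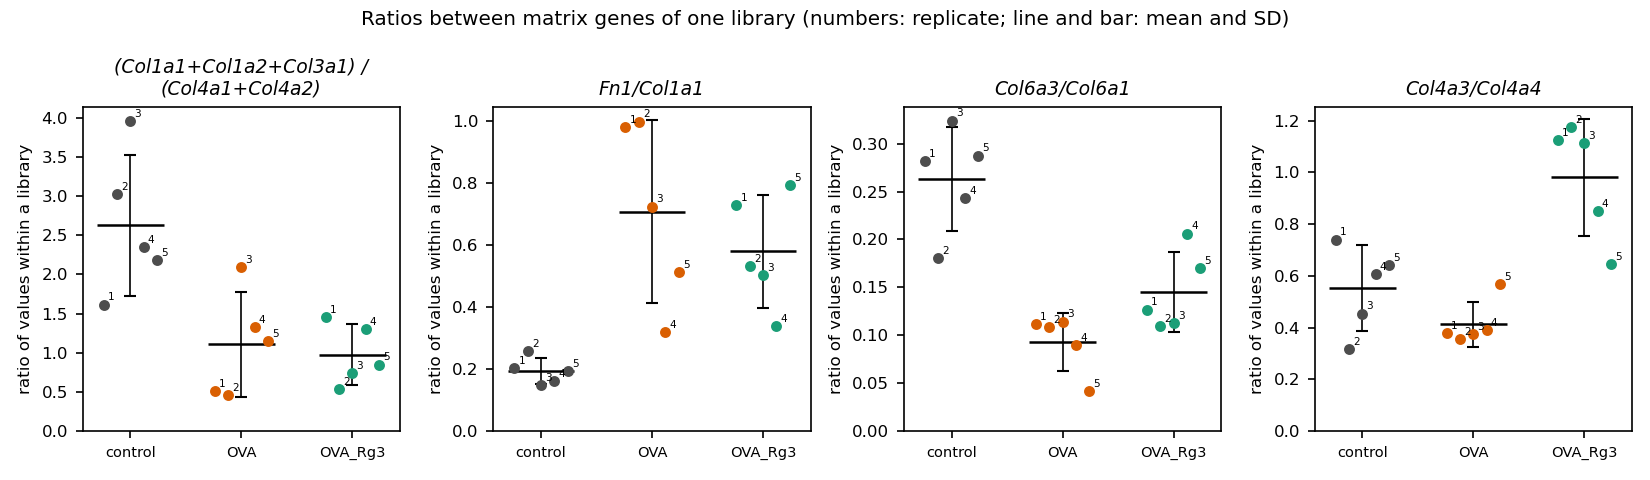
Ratios between matrix genes of one library (vertical axes, no unit, from 0), with a numbered point for each library and the mean and SD of each group of 5. Fn1 to Col1a1 is higher in all ovalbumin libraries than in control, Col6a3 to Col6a1 is lower in all OVA libraries than in control, and Col4a3 to Col4a4 is higher in all OVA_Rg3 libraries than in OVA.

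Genes that make, bind or sense the matrix were followed as lists chosen by function. Their counts with OVA stand beside 10.5% of all genes that fell and 5.4% that rose. Of 18 collagen synthesis and processing genes tested, 2 fell with OVA and 0 rose, with a median log2 change of -0.35. Adamts2, which removes the amino propeptide of fibrillar procollagens, went from 3.22 ± 0.581 in control to 1.11 ± 0.349 in OVA (scaled values, SD, n = 5), a log2 change of -1.0 (adjusted p = 0.00339). P4hb, a subunit of prolyl hydroxylase, went from 91.9 ± 3.81 to 60.3 ± 6.27 (SD, n = 5), a log2 change of -0.61 (adjusted p = 0.0242). Its adjusted p was 0.0507 to 0.0588, with log2 changes of -0.61 to -0.56, when control 1, 3 or 4 or OVA 4 or 5 was left out.

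Of 8 small leucine-rich proteoglycans, 1 fell and 0 rose. It was Aspn, asporin, a collagen-binding proteoglycan, with a log2 change of -1.57 (adjusted p = 0.00906). Of 11 elastic-fibre accessory genes, 1 rose and 0 fell. That gene, Mfap4, a microfibril-associated glycoprotein, was at 14.2 to 19.7 in control and 23.7 to 57.6 in OVA, a log2 change of 1.13 (adjusted p = 0.0216). The change of Mfap4 was 0.30 (adjusted p = 0.551) on the values as deposited, 1.12 (adjusted p = 0.0504) without control 3 and 0.98 (adjusted p = 0.0541) without OVA 1. Of 5 basement-membrane linkers, 1 rose, Egflam, pikachurin, by 0.93 on the log2 scale (adjusted p = 0.0441). Leaving out any of controls 1, 2, 4 and 5 or OVA 1, 2, 4 and 5 gave 0.78 to 0.96 for Egflam, with an adjusted p of 0.0643 to 0.105. The Egflam call was also lost on deposited values (0.49, adjusted p = 0.279), with scaling by the sum without mitochondrial genes and Scgb1a1 (0.86, 0.0697), with no filter (0.93, 0.0525), with the replicate number as a block (0.93, 0.0618) and without the 3 libraries (0.98, 0.068).

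Of 16 matrix receptors, 2 fell with OVA and 0 rose. Itgb4, the integrin chain of hemidesmosomes, had a log2 change of -1.23 (adjusted p = 0.00214), and Ddr1, a collagen-binding receptor kinase of epithelium, had -1.03 (adjusted p = 0.0163). None of the genes in the 5 lists was called between OVA_Rg3 and OVA (limma). Between OVA_Rg3 and control, Adamts2 fell by 0.77 and Itgb4 by 0.88, and Mfap4 rose by 1.06 and Egflam by 1.31 on the log2 scale (adjusted p of 0.0235, 0.0206, 0.0433 and 0.0179). Without control 4 the adjusted p of these 4 genes was 0.0587, 0.0536, 0.087 and 0.0501. For Egflam it was 0.0521 on the values as deposited. It was also above 0.05 for Adamts2 without control 1 (0.0513) or OVA_Rg3 5 (0.0582), and for Itgb4 without control 3 (0.0614) or OVA_Rg3 5 (0.0558). For Mfap4 it was 0.0547 to 0.0968 without any of the other controls or OVA_Rg3 2, 3 or 5, with log2 changes of 0.82 to 1.13.

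Markers of matrix-producing cells moved in different directions. Counts of all marker lists with OVA, here and below, stand beside 10.5% of all genes that fell and 5.4% that rose. Of 8 fibroblast markers, 2 rose (Inmt and Tcf21) and 3 fell (Pi16, Scara5 and Gli1) with OVA, and none was at 0 throughout a group. Pi16, a marker of adventitial fibroblasts, went from 9.27 ± 1.94 to 1.89 ± 0.466 (scaled values, SD, n = 5). Tcf21, a transcription factor of alveolar fibroblasts, went from 9.51 ± 1.81 to 17.5 ± 5.72 (SD, n = 5). The summed level of the list, most of it Inmt, was 295 to 422 in control, 542 to 1430 in OVA and 426 to 1246 in OVA_Rg3.

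Of 8 smooth muscle markers, 7 fell with OVA, and their summed scaled value was 442 to 566 in control, 108 to 204 in OVA and 198 to 266 in OVA_Rg3. Acta2, smooth muscle actin, was at 122 to 178 in control, 17.9 to 40.2 in OVA and 46.1 to 81.2 in OVA_Rg3. All 5 ciliated-cell markers in the table fell too. Of 5 pericyte markers 2 rose, Higd1b and Cox4i2, while Pdgfrb, Notch3 and Cspg4 had log2 changes below 0 that did not pass. Both risen genes carried most of the summed value, which was 17.4 to 36.4 in control and 37.6 to 72.6 in OVA. Of 5 cardiac muscle markers 2 fell, Actc1 and Tnnt2, and the sum was 53.3 to 129 in control and 8.78 to 78.1 in OVA. All 4 erythroid markers rose with OVA, by a median of 2.20 on the log2 scale, and their sum was 1017 to 2663 in control, 5932 to 11103 in OVA and 2201 to 5163 in OVA_Rg3. Each of these 4 was lower in every OVA_Rg3 library than in any OVA library (0.807% of all genes), with adjusted p of 0.28 to 0.441. The part of these cell types, of the mitochondrial share and of depth in the matrix values was not tested.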

How the data were processed

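The deposited table gives 1 value per gene and library with no named unit, and the values are taken to be FPKM from their range, although TPM over a larger gene set is possible. Trimmomatic, featureCounts and GRCm39/mm39 appear without versions in the submitters' processing notes, while gene positions in the deposited table match GRCm38 (GENCODE M21). Per the labels, RNA was extracted with Trizol, enriched with oligo(dT) and made into TruSeq libraries.

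Values were divided by median-ratio size factors from the 6365 genes that reached 1 in all 15 libraries. The 12137 genes that reached a deposited value of 1 in 5 or more libraries were fitted as log2(scaled value + 1) with limma 3.58.1 in R 4.3.3 (trend, robust, 1 mean per group over 15 libraries, n = 5 each). Calls are at a Benjamini-Hochberg adjusted p under 0.05 over all genes tested, and fold changes understate those of low genes. Named with fit values were the genes called, the 2 highest of each matrix type, the 5 of smallest p where none was called, and up to 3 called genes per list; others are named as descriptions after their values were seen. The members and lists were chosen with earlier results of these data known. Read steps were searched in 1608 genes with a single transcript, and 13.4 to 47.3% of low values lay within 2% of whole steps, so depths are approximate and counts were not recovered. Floors cover counting error only. The fit was tested on simulated data. Tables and figures used Python 3.11.15, pandas 2.3.3, numpy 2.4.6, scipy 1.17.1 and matplotlib 3.10.9.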

Additional observations from a re-analysis of the deposited data

Results flagged for a closer look

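Among 78 groups of 5 libraries examined (26 genes in 3 groups), 7 held a library whose gap to its nearest neighbour was large for the group's range, and chance flags about 1 in 20 groups. Values are scaled values. Col14a1 was 2.56 in control 2 and 4.32 to 4.88 in the other controls. Col1a1 was 30.9 in control 5 and 24.9 to 26.4 in the others. Col23a1 was 2.56 in OVA 5 and 4.56 to 5.56 in the other OVA libraries, and Lama5 was 2.12 there and 4.09 to 5.00 in the others. Loxl1 was 10.6 in OVA 4 and 5.33 to 6.37 in the others. Postn was 0.922 in OVA 3 and 2.15 to 2.69 in the others. Fn1 was 24.9 in OVA_Rg3 1 and 4.97 to 7.99 in the others.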

How the results depend on the processing

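With OVA, 27 matrix genes fell on deposited values (51.2% of all genes), 18 with array weights (19.2%), 18 without control 2, OVA 4 and OVA_Rg3 1 together (14.4%), and 6 to 13 with 1 library left out (6.27 to 10.4%), against 10 (10.5%). Against control, OVA_Rg3 gave 2 fallen genes (5.9% of all genes), but 9 on deposited values (15.8%), 1 with a pseudocount of 0.1 (2.32%), 1 with a filter at 5 (7.18%), 9 and 1 risen with array weights (16.9% fallen), 5 without the 3 libraries (5.73%), and 1 to 5 with 1 left out (1.29 to 6.66%). The gene risen with array weights was Col13a1 (limma, adjusted p = 0.0286), where 1189 of all 12137 genes rose. In the main fit it had a log2 change of 0.66 ± 0.32 (SE, adjusted p = 0.217) against control. No matrix gene was called between OVA_Rg3 and OVA under any alternative run.

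The 26 matrix genes followed were those of the naming rule, each only in the comparisons where the rule named it. Among them, log2 changes with OVA that changed sign were those of Col4a1 (-0.74 deposited, -0.080 scaled by the sum without mitochondrial genes and Scgb1a1, -0.038 without the 3 libraries, -0.19 to 0.36 with 1 left out), Col4a2 (-0.71, -0.062, -0.11, -0.13 to 0.32) and Eln (-0.80, -0.13, -0.15, -0.20 to 0.32). Deposited values gave -0.33 for Fn1 and -0.16 for Lox, and Sparc was -0.21 to 0.065 with 1 left out. Among matrix genes not followed in a comparison, Lamb3 (0.083) and Col8a1 (0.0096) lay above 0 with OVA without the 3 libraries. Without these libraries Fbln1 (0.17), Col20a1 (0.12) and Col27a1 (-0.049) also changed sign between OVA_Rg3 and OVA. Lama3 (-0.012) did so between OVA_Rg3 and control. For OVA_Rg3 against OVA, Col16a1 was -0.088 with quantile normalization, -0.032 with size factors from genes above 0 in every library (chosen after seeing the data), -0.016 with array weights and -0.083 to 0.16 with 1 left out. Fn1 was -0.21 with array weights, -0.18 without the 3 libraries and -0.12 to 0.41 with 1 left out, and Lama5 was -0.037 to 0.27 with 1 left out. For OVA_Rg3 against control, Col6a1 was -0.10 as deposited. With 1 left out Lamb2 was -0.24 to 0.062, Lox -0.42 to 0.12 and Loxl1 -0.53 to 0.039. None of these changes was called, and the cause was not tested.

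Deviations of same-numbered libraries correlated at -0.39 to 0.33, so no pairing by number was seen, although weak correlations cannot exclude one. With the replicate block 9 genes fell with OVA: Col3a1 (adjusted p = 0.0575) and Lama4 (0.0806) were lost and Lama5 (0.0424) was gained. Col3a1 was also lost with a pseudocount of 0.1 or no filter, Lama4 with these, quantile normalization or size factors from genes above 0, and Tnc with quantile normalization. With a filter at 5, Col6a3, Col8a2, Lama4 and Tnc were not tested. Depth limits low genes such as Col8a2 most in OVA_Rg3 1 and control 2.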
